A study of Mus musculus with 2 samples.

Results

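The Hist1 cluster is the main group of replication-dependent histone genes of the mouse, on chromosome 13. Its members were taken as every protein-coding gene on that chromosome whose symbol starts with Hist1h in the GENCODE M21 annotation. This gave 54 genes of the 21938 protein-coding genes on assembled chromosomes: 6 of class H1, 13 of H2a, 15 of H2b, 9 of H3 and 11 of H4. They were read against CTCF ChIP-seq peaks from whole liver of B6NCrl mice at postnatal day 0, with no genetic change or treatment named. The series is 1 group of 2 libraries, labelled as biological replicates but with the same biosample and donor, from powdered livers pooled over several dissections, and their spread may thus be technical only. The sex of the mice was not recorded, liver at birth holds several cell types, and the control experiment named in the labels was not analysed here. The count of peaks uses the optimal list, which the authors made from both replicates with the irreproducible discovery rate (IDR), a method that keeps peaks whose rank repeats between lists. A promoter peak is a peak of that list whose summit, its point of highest signal, lies within 1 kb of a gene's 5′ end.

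The core histones H2A, H2B, H3 and H4 form the protein spool of the nucleosome, and the linker histone H1 binds the DNA where it enters and leaves the spool. Replication-dependent histone genes are short, lack introns in their usual transcripts and are expressed in S phase, when new DNA must be packed. Their transcripts end in a stem-loop in place of a poly(A) tail, and the cluster gathers in the cell nucleus at the histone locus body. CTCF recognises a directional DNA motif through its zinc fingers and stops the cohesin complex as it extrudes chromatin loops, so the strand of its motif is informative about loop direction.

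Strong CTCF peaks of the region lay mostly away from the 5′ ends of histone genes, and the peaks within 1 kb of those ends were mostly weak. In the cluster and 100 kb on each side there were 58 peaks, of which 20 lay within 1 kb of the 5′ end of a histone gene and 38 did not. Among the 20, 6 overlapped another of them, so some sites count more than once. The median deposited signal was 23.9 for the 20 and 166 for the 38. It was 71.2 over all optimal peaks and 52.5 over those at protein-coding 5′ ends. The scale of the signal is not stated, so it ranks peaks within 1 list and is no measure of occupancy. Of the 15 peaks of the region above a signal of 300, 2 were promoter peaks of histone genes, those of Hist1h4j and Hist1h4c. Such peaks made up 25.9% of the region's peaks and 10.1% of all optimal peaks. Some lay far from histone genes, such as one of 321, which was 95001 bp from the nearest histone 5′ end.

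**Figure D1:**
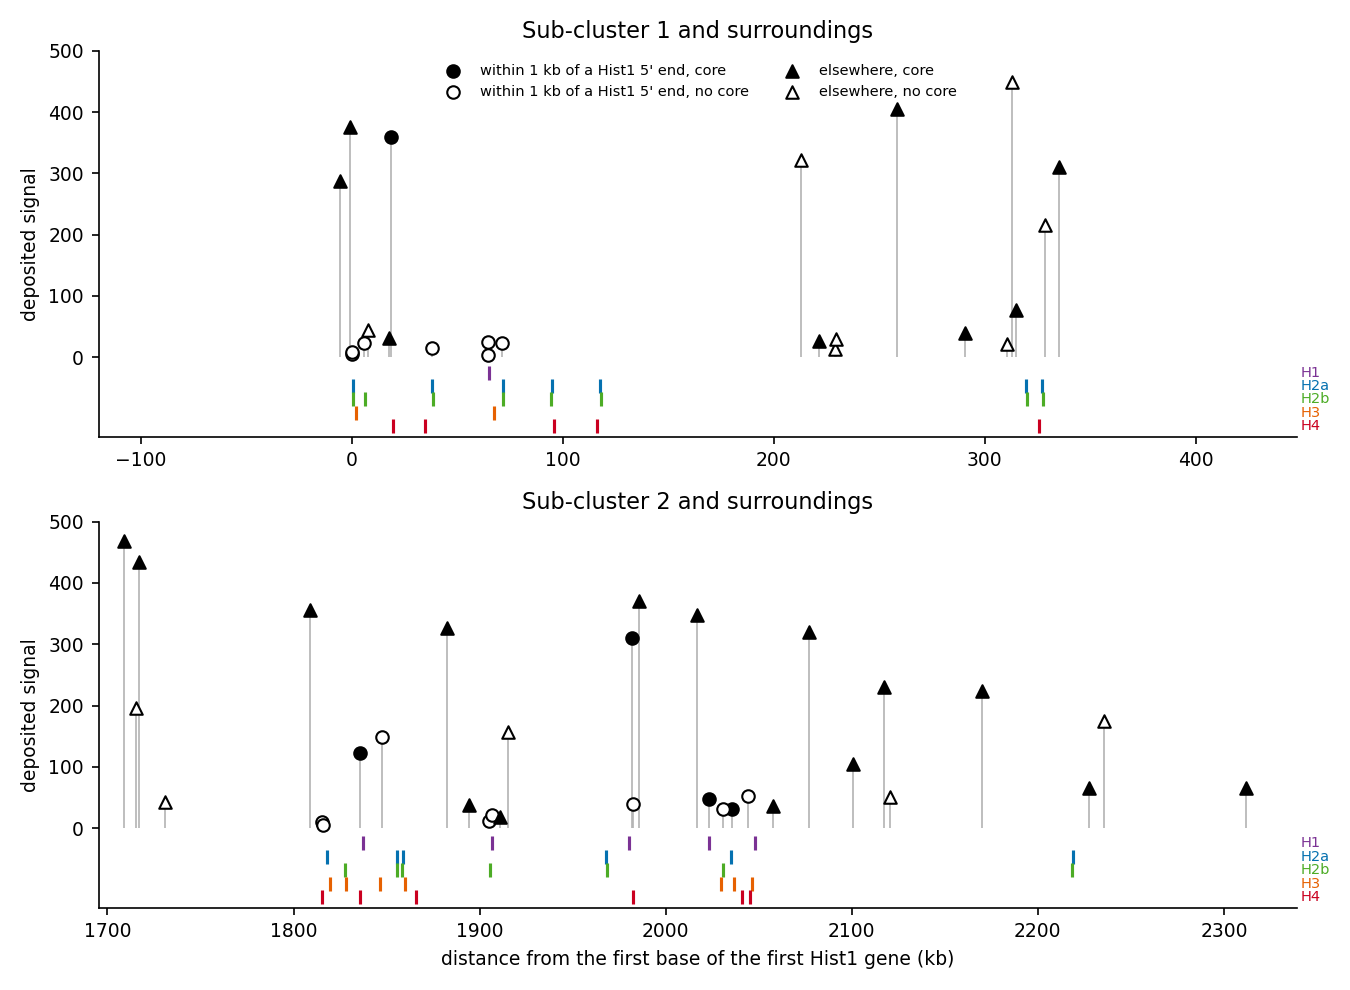
CTCF peaks around the 2 sub-clusters of Hist1 genes, with the deposited signal on the vertical axis and the distance in kb from the first base of the first gene on the horizontal axis. Circles are peaks within 1 kb of a histone gene's 5′ end, triangles are other peaks, filled symbols have the CTCF core within 50 bp of the summit, and coloured ticks mark 5′ ends by class. Most circles lie near the bottom of the plot, and most tall lines end in triangles.

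The sequences under the peaks show how far each matched the 14-base CTCF core, the central part of the motif. Both strands were searched up to 50 bp from each summit, and a peak was said to hold the core with at most 2 mismatches. Among all optimal peaks 71.2% held it, and among peaks at protein-coding 5′ ends 42.1% did. The first set below holds the 4 histone genes with a promoter peak above 100. It also holds 4 strong peaks beside, between or in an intron of histone genes, picked as examples and all with 0 or 1 mismatch. Other strong peaks away from histone 5′ ends had poorer matches, such as one of 448 with 4 mismatches and one of 321 with 3. The set is therefore no comparison of promoter peaks with those farther away. Each run is 30 bases of GRCm38 on the strand of the core, 5′ to 3′, with the best match to the core in capitals.
Hist1h4j, 775 bp upstream, chr13:21734271-21734300, minus strand, 0 mismatches: ctggatggCCACTAGAGGGCACtcttgact
Hist1h4c, 887 bp past the 5′ end, chr13:23697553-23697582, minus strand, 1 mismatch: gccatctgCCACAAGAGGGCGGcgttattt
Hist1h4f, 8 bp upstream, chr13:23551667-23551696, minus strand, 2 mismatches: atataccaGCTGTAGAGGGCGCttaaggaa
Hist1h3e, 959 bp upstream, chr13:23563306-23563335, minus strand, 3 mismatches: cttgaccaCCACTAGGTGACTTttgtaccc
Left border of the first sub-cluster, chr13:21714904-21714933, plus strand, 1 mismatch: gtttgtggCCACAAGATGGCAGaaaagagc
Between Hist1h4c and Hist1h1c, chr13:23701372-23701401, plus strand, 1 mismatch: gaagtaagCCACCAGGTGTCACccttcttc
Upstream of Hist1h1c, chr13:23732658-23732687, minus strand, 1 mismatch: cttagcagACACTAGATGGCAGgccaaaac
Intron of Hist1h2be, chr13:23598165-23598194, minus strand, 0 mismatches: tttggaaaCCACTAGGTGGCGCtgcgaggc
All but that of Hist1h3e met the limit of 2 mismatches, whereas 13 of the 38 peaks away from histone 5′ ends did not.

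The second set comes from weak peaks inside histone coding sequence or a histone pseudogene, and is shown because it holds the same letters more than once.
Hist1h1c coding sequence, chr13:23738874-23738903, minus strand, 2 mismatches: gcgccttcTCCGCAGGGGGCGCggcagcgg
Hist1h2ab coding sequence, chr13:23751367-23751396, minus strand, 2 mismatches: gatggccaGCTGCAGGTGGCGCgggatgat
Hist1h2ak coding sequence, chr13:21753618-21753647, minus strand, 3 mismatches: gccgagatCCTGGAGCTGGCGGgcaacgcg
Hist1h2aj pseudogene upstream of Hist1h2bm, chr13:21721610-21721639, minus strand, 3 mismatches: gccgagatCCTGGAGCTGGCGGgcaacgcg
The runs at Hist1h2ak and Hist1h2aj were the same over all 30 bases, so these 2 peaks lie on copies of one coding stretch.

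A promoter peak was found at 21 of the 54 histone genes, which is 38.9%, against a background of 28.3% of all protein-coding genes. The difference did not hold in the other lists. With the peaks ranked in each replicate alone, 16 genes had one in replicate 1 and 14 in replicate 2 (mean 15 ± 1.41, SD, n = 2). These were 29.6% and 25.9% of the members, beside 28.5% and 28.4% of all genes. In the conservative list, the other IDR list the authors deposited, 13 members (24.1%) had one against 26.8% of all genes, and 11 of the 13 were among the 21. Above the median signal of the optimal list 4 members (7.41%) remained, against 13% of all genes. Across these lists the share of histone genes with a promoter peak lay above, near and below that of all genes.

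By class, a promoter peak was found at 3 of 6 H1 genes, 4 of 13 H2a genes (30.8%), 6 of 15 H2b genes (40.0%), 3 of 9 H3 genes (33.3%) and 5 of 11 H4 genes (45.5%). The exact binomial 95% intervals (Clopper-Pearson) ran from 9.09 to 61.4% for H2a and from 11.8 to 88.2% for H1, and all 5 overlapped each other and included the background. They cover counting error over genes only, and genes that share a peak or a sequence are not independent. The class counts moved with the list: H2b had 3 genes with either replicate alone and 2 in the conservative list, H2a had 2 with replicate 2 alone, and H3 had 0 within 500 bp. Between the sub-clusters the shares were close, at 9 of 23 genes in the first and 12 of 31 in the second. The H4 genes stood higher in signal: the median of the strongest promoter peak was 122 over the 5 H4 genes with one, 31.9 for H3, 25.4 for H1 and 18.6 for both H2a and H2b. The same median was 25.4 over the 21 members and 60.7 over all genes with a promoter peak. The 5 H4 values ran from 9.84 to 359, and the highest, 359 and 310, came from summits 775 and 887 bp from the 5′ end.

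**Figure D2:**
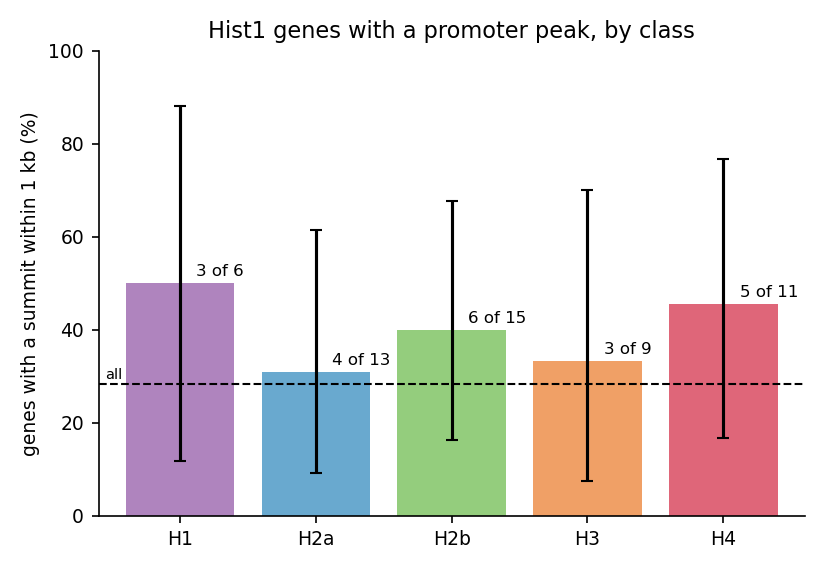
Share of Hist1 genes of each class with a CTCF summit within 1 kb of the 5′ end, in percent, with exact binomial 95% intervals as error bars. The dashed line is the share over all protein-coding genes, 28.3%, and every interval includes it. The H2b count of 6 is 3 with either replicate alone.

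The H4 genes all encode the same protein of 103 residues, yet their promoter peaks differed most. Hist1h4j had the strongest promoter peak of the cluster, at chr13:21734154-21734419, with a signal of 359.5 in the optimal list, 186.6 in replicate 1 and 171.6 in replicate 2. Its summit was intergenic, 775 bp upstream of the 5′ end, over a core without mismatch. Hist1h4c had a peak of 310 (156.2 and 155 in the replicates) at chr13:23697444-23697705, 887 bp past its 5′ end and so beyond the end of the gene, and a weaker one of 39.2 (22.5 and 15.5) in its coding sequence, 43 bp past the 5′ end. In both strong peaks the replicates were close, and the core had 0 mismatches at Hist1h4j and 1 at Hist1h4c.

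Hist1h4f was the member whose summit lay nearest to its 5′ end, 8 bp upstream, at chr13:23551618-23551746. Its signal was 122 in the optimal list, 64.9 in replicate 1 and 57.6 in replicate 2. This peak was also the nearest one to Hist1h1d, a linker histone gene, at 1606 bp. The gene model of Hist1h1d spans 7425 bp, so this distance depends on where its 5′ end was annotated. Hist1h4a had a peak of 52.6 (23.2 and 30) 976 bp past its 5′ end, with no core. At Hist1h4h both summits were weak, 9.84 (4.21 and 6.5) in the coding sequence and 4.86 just past the gene, the latter matched in replicate 2 alone at 5.75.

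The 200 bases before the 5′ end set Hist1h4f apart among the H4 genes. It was the 1 gene of 11 with the core there at no more than 2 mismatches, and in the other 10 the best match had 3 to 5. The core of Hist1h4f lay 27 to 40 bases upstream of the annotated 5′ end, just after a run of alternating T and A. Hist1h4d, which encodes the same protein and had no summit within 16572 bp of its 5′ end, is shown for comparison, each on the gene's strand with the best match in capitals.
Hist1h4f, chr13:23551649-23551848, minus strand: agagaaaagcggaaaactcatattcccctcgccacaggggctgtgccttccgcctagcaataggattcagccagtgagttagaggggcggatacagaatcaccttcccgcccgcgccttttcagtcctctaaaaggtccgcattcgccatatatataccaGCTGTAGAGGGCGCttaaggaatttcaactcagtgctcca
Hist1h4d, chr13:23581398-23581597, plus strand: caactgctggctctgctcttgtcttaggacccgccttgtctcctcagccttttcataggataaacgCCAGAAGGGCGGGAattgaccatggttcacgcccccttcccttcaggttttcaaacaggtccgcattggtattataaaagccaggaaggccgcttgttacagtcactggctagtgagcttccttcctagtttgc
The match in Hist1h4d had 4 mismatches. Within 1 kb of its 5′ end, though, Hist1h4d had a match with 2 mismatches and still no promoter peak. Matches are descriptions of these letters and not shown to be bound sites.

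Among the H3 genes, Hist1h3e had a peak of 148.5 (85.3 in replicate 1 and 62.2 in replicate 2) 959 bp upstream, between genes, whose best core match had 3 mismatches. The promoter peaks of Hist1h3c and Hist1h3b were shared with neighbours. The first, of 31.9 (10.1 and 23.2), lay in the histone pseudogene Gm11336, 773 bp upstream of Hist1h3c and 359 bp upstream of Hist1h2bb. The second, of 31.1 (15.6 and 14.1), lay in the coding sequence of Hist1h2ab, 245 bp past its 5′ end, and 896 bp upstream of Hist1h3b. Within 500 bp of the 5′ end no H3 gene had a summit.

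The H2a and H2b genes carried weak peaks only, from 8.24 to 31.9 for the strongest at each gene. At Hist1h2an the summit, of 22.4 (13.3 and 9.20), lay in the coding sequence, 356 bp past the 5′ end, and the same peak lay 599 bp upstream of Hist1h2bp. A peak of 14.9 (6.31 and 5.46) lay 176 bp past the 5′ end of Hist1h2ak, in its coding sequence, and 472 bp upstream of Hist1h2bn. Both replicates held these summits, but at low rank: that of Hist1h2ak stood at 69753 and 77238 of the 300000 peaks in each replicate list, beyond the 57220 of the optimal list. Hist1h2bm had a peak of 22.4 (7.73 and 15.3) 415 bp upstream, in the pseudogene Hist1h2aj. Hist1h2bl and Hist1h2ai shared a peak of 8.24, matched in replicate 1 alone, and one of 5.72 matched in neither. The peak at Hist1h2be, of 11.9, was matched in replicate 2 alone at 8.15. The annotated 5′ end of that gene lies inside Hist1h1e, at the end of a gene model of 37455 bp.

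Most H2a and H2b genes stand head to head over a short shared promoter. There were 11 such pairs, with 5′ ends 176 to 306 bp apart (median 268 bp). No summit lay between the 5′ ends of any of the 11. In 3 pairs both genes had a promoter peak, Hist1h2ai with Hist1h2bl, Hist1h2ak with Hist1h2bn and Hist1h2an with Hist1h2bp, and each time the shared summit nearest the genes lay in the coding sequence of one of them. In the other 8 pairs neither gene had one in the optimal list. Of these, Hist1h2ae and Hist1h2bg both had one in the conservative list and with replicate 1 alone. With 5′ ends this close the 1 kb windows of a pair overlap widely, so a peak tends to count for both genes.

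The H1 genes with a promoter peak were Hist1h1b, Hist1h1c and Hist1h1e, each with its summit in its own exon sequence. Hist1h1c had the strongest peak in the exons of a histone gene, 47.8 (30.4 in replicate 1 and 14.2 in replicate 2), 51 bp from the 5′ end and with the core. Hist1h1e had a peak of 20.8 (14.1 and 6.41) 39 bp from the 5′ end. At Hist1h1b the optimal list held 2 overlapping peaks. That of 25.4, at 366 bp, was matched in replicate 2 alone at 13.4, and that of 4.13, at 160 bp, in replicate 1 alone at 13.4, so each replicate placed its summit at another point of the gene. Hist1h1t, the testis-specific linker histone, had its nearest summit at 1753 bp, the strong peak behind Hist1h4c.

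**Figure D3:**
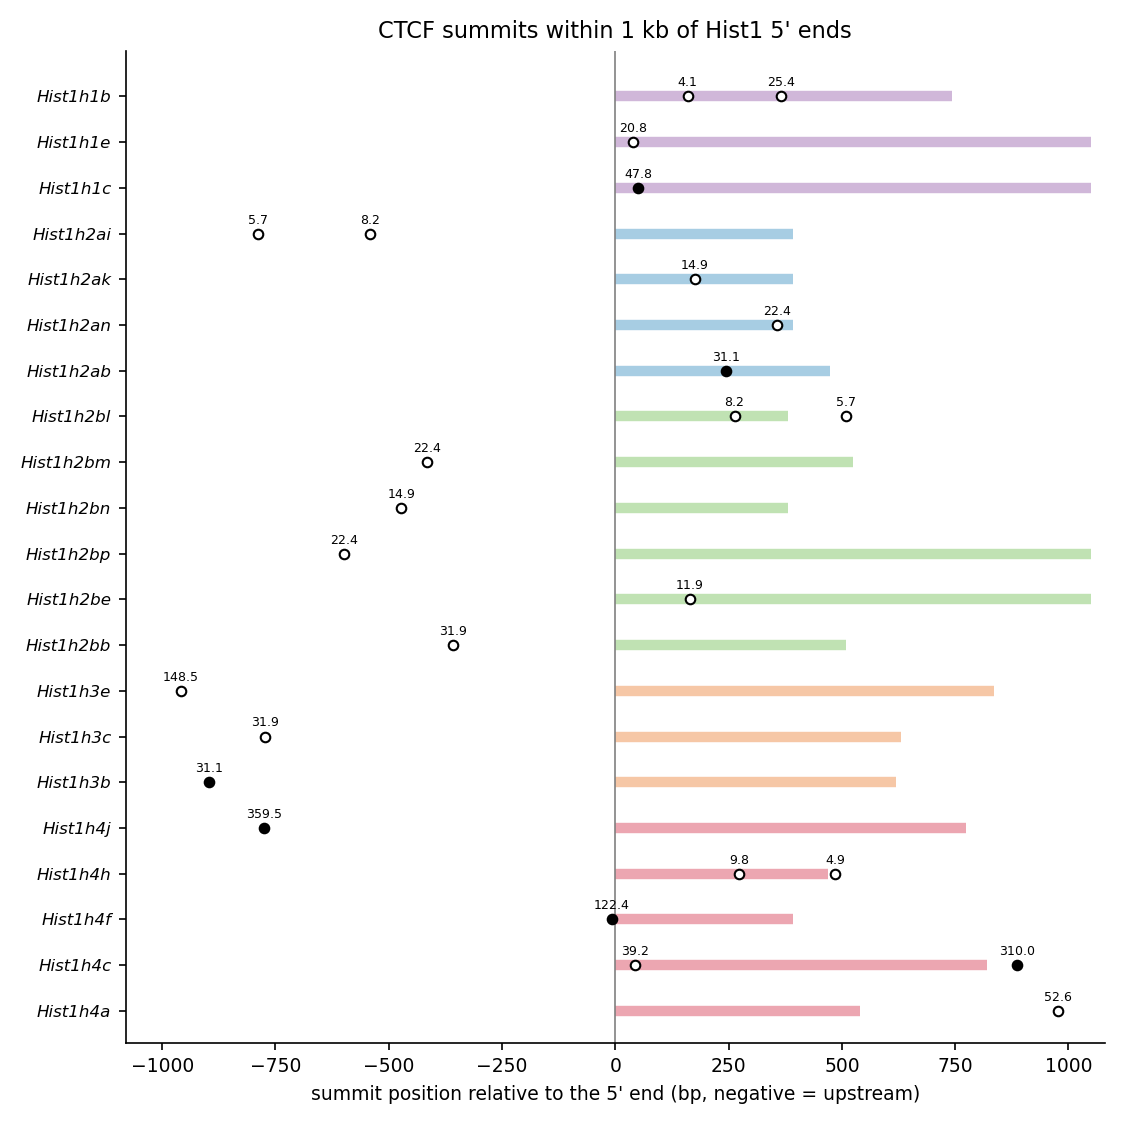
Position of each CTCF summit relative to the 5′ end of the 21 Hist1 genes with a promoter peak, in bp, with the deposited signal printed above each point. Bars show the gene body by class, running to the edge of the plot for longer genes, and filled points have the CTCF core. Points inside a bar reach at most 47.8, and the points above 100 lie outside the bars.

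In all, 11 peaks had their summit in the coding sequence or untranslated exon sequence of a histone gene, with signals from 4.13 to 47.8 (median 20.8), and 2 of these held the core. A further 2 peaks, of 326.9 and 37.9 and both with the core, lay in introns of the long gene model of Hist1h2be. Counted as pairs of a gene and a summit, 11 of 26 summits lay inside the gene they were counted for (42.3%), beside 46.7% over all protein-coding genes. Another 11 lay upstream and 4 beyond the gene's end. The median Hist1 gene was 532 bp long and thus shorter than the 1 kb window, so these shares are not alike. Of the 20 promoter peaks 5 held the core (25.0%), against the 42.1% at protein-coding 5′ ends. The 5 had a median signal of 122 and the 15 without it 20.8, beside 128 and 34.0 at all protein-coding 5′ ends. Among the 15 were the 6 overlapping peaks, so some sites without the core count more than once in this share and median. Elsewhere in the region 25 of 38 peaks held the core (65.8%), against the 71.2% of all peaks.

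**Figure D4:**
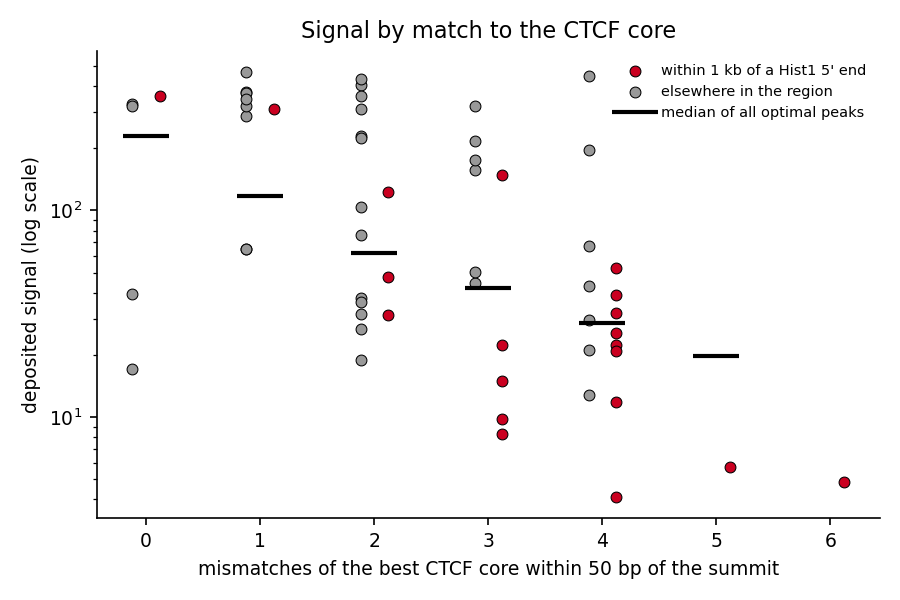
Deposited signal of the region's 58 peaks, on a log scale, by the number of mismatches in the best CTCF core within 50 bp of the summit. Red points are promoter peaks of Hist1 genes, grey points are other peaks of the region, and black bars are medians over all optimal peaks. Median signal falls with mismatches in all optimal peaks, from 228 at 0 to 28.6 at 4.

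In the region the median signal was 320 over the 5 peaks whose core had no mismatch and 29.5 over the 15 with 4. The strongest exception lay at chr13:22028726-22029012, in an intron of the gene model Gm11292, 6.71 kb from Hist1h2ah. It had a signal of 448 and a best match with 4 mismatches. Over all members, 35 of 54 (64.8%) had a core within 1 kb of the 5′ end, against 53.3% of all protein-coding genes. By class these were 12 of 13 H2a, 12 of 15 H2b, 4 of 6 H1, 3 of 9 H3 and 4 of 11 H4 genes. The H3 and H4 shares thus lay below the 53.3%. Paired H2a and H2b genes have overlapping windows and can share 1 core, so they are not independent. Of the 35, 17 had a promoter peak and 18 had none.

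The replicates ranked the strong peaks alike and parted on the weak ones. Of the 58 peaks 52 had a summit within 100 bp in both replicate lists, with a Spearman's rho of 0.95 between the replicate signals over these 52 peaks, which share 2 libraries. All 38 peaks away from histone 5′ ends were matched in both, but 14 of the 20 promoter peaks were, with a rho of 0.815 over the 14. The region's 6 peaks that overlapped another peak were all promoter peaks, at Hist1h2bl, Hist1h1b and Hist1h4h. Except for that at Hist1h2be, every unmatched promoter peak was among these 6. A site whose summit was placed differently can thus count as unmatched, as at Hist1h1b. The conservative list held 36 of the 38 and 11 of the 20. Neither share was computed over all optimal peaks or over those at protein-coding 5′ ends. Whether weak peaks elsewhere are lost as often was therefore not tested. No read counts were used, so the depth of the libraries is unknown and a peak's signal has no interval.

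**Figure D5:**
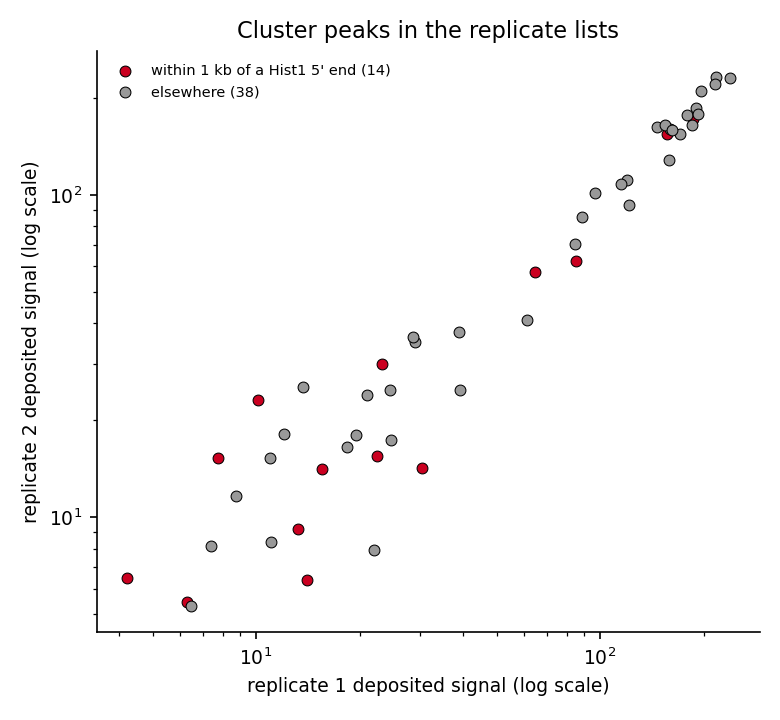
Deposited signal in replicate 1 against replicate 2, both on log scales, for the 52 peaks of the region with a summit within 100 bp in both lists. The 38 grey points are peaks away from Hist1 5′ ends and the 14 red points are promoter peaks of Hist1 genes, most of which lie in the lower left.

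The 33 members without a promoter peak had their nearest summit 1128 to 46881 bp from the 5′ end. Over all 54 members the median distance was 2251.5 bp, against 5701 bp over all protein-coding genes. The class medians were 883 bp for H1, 2132 for H3, 2980 for H4, 4929 for H2a and 5231 for H2b. In each replicate alone the median over members was 2860 and 5073 bp, so this distance varied with the library. The median over all protein-coding genes was computed for the optimal list only, so these 2 values have no background. At the 1 kb limit, Hist1h4a at 976 bp and Hist1h3e at 959 bp were the last inside, and Hist1h2bj at 1128 bp and Hist1h2ag at 1398 bp the first outside, both facing 1 peak of 216.

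Histone genes are near-copies of each other, which bears on what short reads can place. In the median member 41.3% of the 31-base words of the gene occurred once in the genome. By class this was 95.6% for H1, 41.5% for H2b and 39.6% for H3, with H4 above H2b and H2a lowest. In the window of 1 kb on each side of the 5′ end it was 77.2% for members with a promoter peak and 68.5% for those without. Hist1h2bq, Hist1h2ao, Hist1h4m, Hist1h4n, Hist1h2ap and Hist1h2br had under 5% unique words in that window. The 200 bases upstream of Hist1h4m and Hist1h4n were identical. None of these 6 had a promoter peak, and their nearest summits lay 23335 to 46881 bp away, in a stretch of 141.9 kb between neighbouring summits. Without them 21 of 48 members had a promoter peak (43.8%). As none of the 6 had a peak, leaving them out could only raise the share. The same filter was not applied to all protein-coding genes, so this share has no background beside it. The peaks at Hist1h2ab and Hist1h2bm, though, were called over intervals with 0% unique words. How reads with several matches were treated is not given in the sources used here, and the part of this in the results was not tested.

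The cluster falls into 2 dense sub-clusters. The first, chr13:21715763-22043676, spans 327.9 kb with 23 members, and the second, chr13:23531050-23934851, spans 403.8 kb with 31. They held 18 and 24 peaks, or 54.9 and 59.4 per Mb, against 23.3 per Mb over the autosomes and 19.2 over chromosome 13. Above the median signal the densities were 15.2 and 27.2 per Mb, beside 11.7 over the autosomes, so much of the first sub-cluster's density came from weak peaks. Between them lies a gap of 1487.4 kb with 36 annotated Vmn1r genes, which encode pheromone receptors of the vomeronasal organ. The gap held 10 peaks, or 6.72 per Mb. The stretch of Vmn1r genes held 1, of 17.0 (7.40 and 8.14) over a perfect core, and the longest stretch without a summit was 1013.2 kb.

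The outer borders of the first sub-cluster each had a strong peak close to the last gene. On the left, 1224 bp past the 5′ end of Hist1h2bl and just outside the gene, a peak of 376 (189.7 and 186) held a core on the plus strand, which points to higher coordinates and so into the sub-cluster. On the right, the peak of 216 (121.7 and 93.3) 1128 bp from the 5′ end of Hist1h2bj had no core, and the next, of 311 (146.5 and 162.9), had one on the minus strand, again pointing inward. The second sub-cluster differed. On its left a peak of 356 (178.4 and 176.7) lay 6.22 kb before Hist1h4h with a core on the minus strand, and on its right a peak of 65.2 (29 and 35) lay 8.59 kb past the 5′ end of Hist1h2aa with a core on the plus strand, so both pointed outward. Among peaks with the core, the first sub-cluster had 3 on the plus and 3 on the minus strand, and the second 4 and 10.

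The 6 strongest peaks away from histone 5′ ends ranged from 370 to 468. The strongest, at chr13:23424490-23424780, had 238 in replicate 1 and 230.6 in replicate 2 and lay 0.77 kb from Abt1, the gene of a basal transcription activator, in the gap. A second gap peak, of 433 (216.1 and 220.6), lay 8.83 kb from Abt1. In the first sub-cluster were the peak in Gm11292 (217 and 231.7) and one of 405 (197 and 210.3) 6.86 kb from Pom121l2. The other two were the left border peak and one of 370 (192.1 and 178) 2.93 kb upstream of Hist1h4c. Thus 2 strong peaks, of 310 and 370, stood on either side of Hist1h4c, with cores on opposite strands that pointed away from each other.

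Histone genes outside the cluster and genes that supply histones were counted in the same way. Of 13 canonical histone genes on other chromosomes 3 had a promoter peak (23.1%), at Hist3h2a (174), Hist2h4 (133) and Hist2h2ab (129). Among the Hist1 promoter peaks those of Hist1h4j, Hist1h4c and Hist1h3e were above 129. Of 12 histone variant genes, which are expressed outside S phase too or replace canonical histones, 5 had one (41.7%), the strongest at H2afx (134), H2afv (121) and H2afz (49.2). Of 15 genes for histone transcription and 3′ end processing 9 had one (60.0%). Lsm11, a subunit of the U7 particle that cuts histone transcripts, had a peak of 595 with a perfect core 98 bp upstream, rank 30 of 57220. Sympk, a scaffold of the cleavage complex, had 126, and Npat, the activator of the histone locus body, 63.4. Of 5 histone chaperone genes 4 had one, the strongest at Asf1b (391), Asf1a (254) and Chaf1b (25.3). These lists are small, and the 28.3% of all genes is the background for each.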

How the data were processed

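CTCF ChIP-seq peaks of 2 libraries of newborn mouse liver were used as deposited, in 5 peak lists on mm10 (2 replicates, pooled, conservative IDR and optimal IDR), per the labels. Each derives from alignments and 1 further file of unnamed kind, per the text the authors deposited with the samples. The aligner is not given in the sources used here, nor are the peak caller, its version or thresholds. The signal of a peak is the value the authors deposited, on a scale that is not stated. The deposited −log10 q value and the deposited score were not used. The summit is the peak start plus the offset the authors deposited. The optimal list holds 57220 peaks with signals from 4.12 to 701.8, the conservative 54864, and each replicate list 300000, of which the strongest 57220 were used where a replicate stands alone. The number of columns of per-sample values not used was 0.

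Genes came from GENCODE M21 on GRCm38, whose chromosome 13 has the length of that in mm10. A gene's 5′ end is the first base of its annotated span. Summits within 100 bp were matched between lists. The CTCF core, unique 31-base words, proteins and sequences were computed from the GRCm38 genome. Only the core search and the pairing of summits with 5′ ends were first tested on simulated data. Python 3.11.15, numpy 2.4.6, pandas 2.3.3 and scipy 1.17.1 were used. With 1 group and no read counts no test was made. Members and lists were chosen with earlier results of these data known. Named were all members with a promoter peak, the 6 strongest peaks elsewhere, the peaks nearest the borders and the 3 strongest genes of each further list. Alternatives were the conservative list, peaks above the median signal, each replicate alone, other windows, any annotated start, the nearest gene only and other mismatch limits.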

Additional observations from a re-analysis of the deposited data

How the results depend on the processing

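Of the values recomputed for each result under each alternative, 89 stayed within 1.5 times the reported value (for the distance, within the spread of the replicates) and 26 did not. In the conservative list 13 Hist1 genes had a promoter peak, 2 H2b genes and 2 chaperone genes. Above the median signal these were 4 Hist1 genes (H1 0, H2a 0, H2b 0, H3 1, H4 3), 2 variant, 2 processing and 2 chaperone genes, and 26 peaks stood in the region, 19 with the core. A window of 500 bp left 0 H3 and 3 H4 genes (all protein-coding genes 21.9%), and one of 2 kb gave 5 H1 and 5 other canonical genes (all 35.1%). Counting a peak for its nearest gene only left 1 H3 gene, any annotated start gave 8 variant genes (all 36.2%), and at most 1 mismatch left 14 peaks with the core. With 1 replicate left out, the ranges were 14 to 16 Hist1 genes, 2 to 3 H2a genes, 3 to 3 H2b genes, 4 to 5 other canonical genes and a median distance of 2860 to 5073 bp. The setting of peaks matched in both replicate lists, chosen after seeing the data, gave 17 Hist1 genes. For this setting and that of the nearest gene only, the share over all protein-coding genes was not computed. Beyond the smaller sets of peaks or genes each setting uses, the cause was not tested. No paired analysis was possible because there is 1 group. Weak promoter peaks rest on summits near the end of the ranked list, and with the depth unknown no limit on detection can be given.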

Other observations

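The region also holds many transfer RNA genes, which RNA polymerase III transcribes. The RefSeq annotation used here places 79 of 403 tRNA genes in the cluster and its flanks, 31 in the first sub-cluster, 46 in the gap, 2 in the left flank and 0 in the second sub-cluster. Of the 79, 17 had a CTCF summit within 1 kb of the 5′ end (21.5%), against 27.5% of all 403 and 29.0% of the 324 elsewhere. The 17 genes share 14 peaks, with signals from 9.84 to 448. Among these 14 were the peak in Gm11292 (448), that near Pom121l2 (405) and one of 433 near Abt1, 3 of the 6 strongest peaks of the region away from histone 5′ ends.

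The windows around Hist1 5′ ends were CpG-rich: the median ratio of observed to expected CpG within 500 bp was 0.876 for members and 0.552 over all protein-coding genes, at a GC content of 53.8% and 54.7%. Repeat-masked sequence lay under 5 of the region's 58 summits, against 22.4% of all optimal peaks.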
